A study of Mus musculus with 18 samples.

Results

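The genes described here are 9 components of the Nodal pathway, namely Nodal, its relative Gdf3, the antagonists Lefty1 and Lefty2, the co-receptor Tdgf1 (also called Cripto), the receptors Acvr1b and Acvr2b, the signal transducer Smad2 and the nuclear partner Foxh1. They were picked by gene symbol from 14804 genes listed in any of 3 expression tables, by a rule that uses no measured value, although the set was drawn up with earlier results of these data known. RNA-seq had been performed on mouse embryonic stem cells (ESCs, the E14 line, grown without feeders on gelatin with serum and LIF), trophoblast stem cells (TSCs, grown on fibroblast feeders with FGF4 and heparin) and extra-embryonic endoderm stem cells (XEN cells, grown on gelatin in medium partly conditioned by feeders). Cells had been grown at 20% oxygen (normoxia) or at 2% oxygen (hypoxia, sampled on day 2 or day 7), and 2 biological replicates of every condition make up the 18 libraries. No gene was altered in any group, and each cell type stands for 1 source of cells, so that the replicates measure the spread between cultures. The comparisons set acute (day 2) and prolonged (day 7) hypoxia against normoxia and against each other within a cell type. Each cell type has 1 normoxic group, and none was matched to each hypoxic day. Low oxygen and time in culture therefore cannot be told apart in any comparison.

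Nodal is a secreted ligand of the TGFβ family that keeps the early epiblast in a state able to form the germ layers and, at gastrulation, patterns the primitive streak. It binds type I and type II activin receptors, here Acvr1b and Acvr2b, with Tdgf1 as a co-receptor, and the receptors phosphorylate Smad2 and its relative Smad3, which act in the nucleus with Smad4 and DNA-binding partners such as Foxh1. Lefty1 and Lefty2 are secreted inhibitors that are themselves targets of the pathway, so that their transcripts are widely read as a readout of Nodal signaling.

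All 9 genes were listed in the ESC table of 13578 genes, 6 in the TSC table of 13518 genes and 5 in the XEN table of 11538 genes. Lefty1, Tdgf1 and Gdf3 were not listed for TSCs, and Nodal, Lefty1, Lefty2 and Gdf3 were not listed for XEN cells. The authors had kept protein-coding genes above 0.4 CPM (counts per 1000000 reads) in at least 2 of 6 libraries, and a gene below that level has no row. The values are TPM (transcripts per 1000000), scaled to a sum of 1000000 per library within each table. Multiplying a TPM by the distance between the gene's start and end gave whole multiples of 1 step in each library for a median of 98.8% of genes, which returned the reads behind each value, 35592641 to 75204029 per library. Sequencing was paired-end, and the sources used here do not state whether the mates of a fragment were counted singly. If they were, the reads of a gene are not all independent. Because the deposited TPM divide by the whole gene, introns included, levels of different members are compared below as TPM recomputed with the summed exon length. Sums over lists of markers use the deposited TPM, in which genes of short span weigh more.

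The cell types carried their own markers. The 8 ESC markers, Pou5f1, Nanog and Sox2 among them, summed to between 12056 and 15889 TPM in ESC libraries and to at most 1325 TPM elsewhere, in TSCs, for which Pou5f1 and Dppa3 were not listed. The 8 TSC markers summed to between 12040 and 22913 TPM in TSCs and at most 1429 TPM elsewhere, in XEN cells, and the 8 XEN markers to between 3756 and 4775 TPM in XEN cells and at most 29.5 TPM elsewhere. On day 2 and day 7 the TSC sum was mostly Hand1, a factor of trophoblast giant cells. It does not follow the single markers, of which 5 were called lower and 1 higher on day 7 than on day 2 (below). Fibroblast genes varied widely in TSCs. The 8 feeder markers summed to 1844 and 260.2 TPM in the normoxic replicates, 195.8 and 946.5 TPM on day 2, and 424.5 and 253.8 TPM on day 7. In bulk RNA, fewer cells of a type and less RNA per cell cannot be told apart. The summed level of 8 genes of the hypoxia response (7 in XEN cells) was higher in both day 2 libraries than in both normoxic libraries of each cell type. In TSCs it was 1483 and 1484 TPM in normoxia, 3312 and 3436 TPM on day 2 and 1888 and 2140 TPM on day 7.

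Lefty1 and Lefty2 lie near each other on chromosome 1 (GRCm38 1:180935022-180938400 and 1:180893108-180899103, both on the + strand) and are close in sequence, so that reads could in part be shared between them. Their coding sequences are each 1104 bases long in GENCODE and match at 1014 bases (91.8%) without a gap. Of the windows of 75 bases, the length of a read, 173 of the 1546 in the Lefty1 transcript also occur in the Lefty2 transcript (11.2%), and these are 7.21% of the 2399 windows of Lefty2.

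The remaining genes lie apart. Nodal is at 10:61417972-61425338 (+), Gdf3 at 6:122605403-122610087 (−), Tdgf1 at 9:110939603-110946158 (−), Foxh1 at 15:76668225-76669948 (−), Acvr1b at 15:101174067-101213684 (+) and Acvr2b at 9:119402118-119434995 (+), all in GRCm38. A miRNA gene lies within Acvr1b on the same strand, and an antisense gene within Acvr2b at 9:119405108-119409016. The strand setting of the counting was not given in the sources used here, so reads of Acvr2b and of its antisense partner cannot be told apart.

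Promoters are shown for Nodal and Acvr2b, which were both lower in TSCs on day 7 than on day 2 (below), as the 250 bases before the RefSeq start in build GRCm38.p6. The table of promoters held 4 of the 9 genes, Nodal, Acvr2b, Acvr1b and Tdgf1. Capitals mark the core of the hypoxia response element, searched on both strands as ACGTG and as GCGTG (which share the letters CGTG).
Nodal, 10:61417722-61417971, + strand: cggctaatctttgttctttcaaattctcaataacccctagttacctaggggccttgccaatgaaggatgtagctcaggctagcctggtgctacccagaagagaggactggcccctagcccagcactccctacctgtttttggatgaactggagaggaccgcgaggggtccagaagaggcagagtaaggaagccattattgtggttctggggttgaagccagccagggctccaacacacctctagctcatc
Acvr2b, 9:119401928-119402177, + strand: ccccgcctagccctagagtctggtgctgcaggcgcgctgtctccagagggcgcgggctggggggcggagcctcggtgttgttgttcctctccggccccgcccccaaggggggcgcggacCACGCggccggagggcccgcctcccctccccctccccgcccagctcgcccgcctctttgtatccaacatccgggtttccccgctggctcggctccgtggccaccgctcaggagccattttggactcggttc
ACGTG was absent from both windows, and GCGTG was found 0 times for Nodal and 1 time for Acvr2b. The Acvr1b window held ACGTG 2 times, once on each strand of a palindrome, and GCGTG 1 time, and the Tdgf1 window held GCGTG 2 times. Of 32851 promoters in the table, 16.6% held ACGTG and 28.2% held GCGTG. A motif of FOXH1 (AATCCACA, 0.718% of promoters), the palindrome bound by SMAD proteins (GTCTAGAC, 0.167%) and a T-box element (TCACACCT, 1.12%) were searched likewise and were in none of the 4 windows. These matches describe letters and not binding.

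Tdgf1, Gdf3, Foxh1 and Nodal were the abundant members in ESCs, Foxh1 in TSCs and Smad2 in XEN cells. In normoxic ESCs, TPM recomputed with exon length was highest for Tdgf1, at 766 on average over 2 libraries. Gdf3 (189.7), Foxh1 (188) and Nodal (168) followed and overlapped in their libraries. Lefty1 (77.9) and Lefty2 (70.0) came next, and their libraries overlapped too. The receptors and the transducer were lowest, with Acvr2b at 40.1, Smad2 at 28.7 and Acvr1b at 24.5. In normoxic TSCs the order was Foxh1 (90.9), Acvr1b (43.5), Smad2 (34.5), Acvr2b (24.6), Nodal (8.09) and Lefty2 (0.423), with no overlap between neighbours in their libraries. In normoxic XEN cells Smad2 was highest (70.5), then Acvr1b (26.8) and Acvr2b (17.4), with Foxh1 (1.65) and Tdgf1 (0.501) far below. The receptors, Smad2 and Foxh1 were thus listed in all 3 cell types, while Gdf3 and Lefty1 were listed for ESCs only. Each table was scaled by the authors over its own genes, so these levels are set side by side across cell types without a test.

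**Figure D1:**
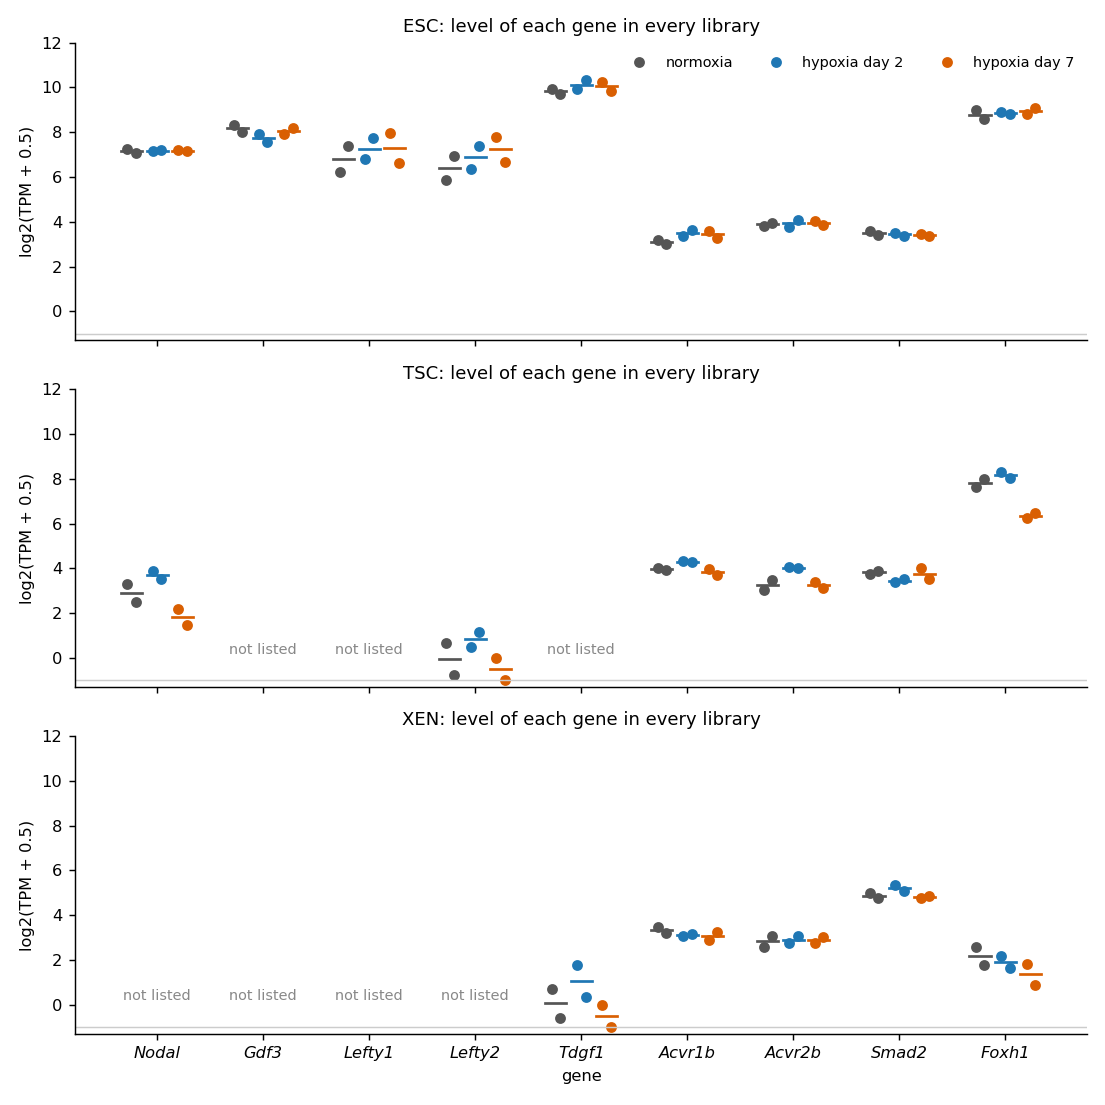
Level of each gene as log2(TPM + 0.5), with the deposited TPM, in ESCs, TSCs and XEN cells. Points are libraries and bars the mean of the 2 replicates of a condition, and the grey line is a TPM of 0. Nodal is flat in ESCs, Lefty1 and Lefty2 are spread within each ESC condition, and Foxh1 and Nodal are lowest on day 7 in TSCs.

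Changes were tested with limma on log2(TPM + 0.5) for genes above 0.4 TPM in at least 2 of 6 libraries, which all listed members were. Log2 fold changes are on that scale and understate the change of genes with low TPM. A call needed a fold change over 1.5 and a p of at most 0.1 after Benjamini-Hochberg adjustment across the tested genes of that cell type. With 2 libraries per condition, an exact permutation test of a single gene cannot give a two-sided p below 0.333, so that calls rest on the spread shared across genes. In ESCs, 0 of 9 members were called on day 2 against normoxia (0% of all genes were), 0 on day 7 against normoxia (0.758% of all genes) and 0 on day 7 against day 2 (0.179% of all genes). In TSCs, 0 of 6 were called on day 2 (0.2% of all genes), 1 on day 7 against normoxia (0.385%) and 3 on day 7 against day 2 (16.2%). In XEN cells, 0 of 5 were called on day 2 (0%), on day 7 against normoxia (0.11%) and on day 7 against day 2 (0.0367%). On day 2 in ESCs and XEN cells the hypoxia response genes were not called either. In ESCs 6 of 8 were past 1.5-fold and 0 were called, and in XEN cells 6 of 7 were and 0 were called. A count of 0 on day 2 there cannot tell no change from a test too weak to call it. On day 7 against normoxia, 1 of the 8 genes was called in ESCs, with 6 past 1.5-fold. In XEN cells 1 of 7 was called, with 5 past 1.5-fold. A count of 0 on day 7 against normoxia there is limited in the same way. In TSCs on day 2, 8 of 8 hypoxia response genes were past 1.5-fold and 3 were called. At an unadjusted p under 0.05, limma gave 1 ESC member on day 2 (Gdf3) and 0 in both other ESC comparisons, 1 TSC member on day 2 (Acvr2b), 1 XEN member on day 7 against day 2 (Tdgf1) and 0 in both other XEN comparisons. Such a p was found for 5.05%, 8.04% and 4.26% of all genes in ESCs on day 2 against normoxia, on day 7 against normoxia and on day 7 against day 2, for 13.1% in TSCs on day 2, and for 7.77%, 9.01% and 11.9% in XEN cells in the 3 comparisons. The voom fit to the recovered reads called 0 members in each of these 7 comparisons as well.

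The calls over all genes depended on single libraries. From day 2 to day 7 in TSCs, the 2019 genes called became 0 without day 7 replicate 2, 30 without day 2 replicate 1 and 284 without day 7 replicate 1. On day 7 against normoxia in TSCs, the 48 called became 0 without either day 7 library, 26 without normoxic replicate 1 and 185 without normoxic replicate 2. On day 2 in TSCs, the 25 called ranged from 0, without any 1 day 2 or day 7 library, to 50, without normoxic replicate 2. In ESCs, leaving out day 2 replicate 1 gave the highest counts, 493 in place of 0 on day 2, 322 in place of 93 on day 7 against normoxia and 192 in place of 22 on day 7 against day 2. The lowest ESC counts on day 7 were 8 against normoxia, without normoxic replicate 2, and 0 against day 2, without either day 7 library. In XEN cells the counts with 1 library left out were 0 to 61, 1 to 195 and 0 to 83 in place of 0, 12 and 4.

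**Figure D2:**
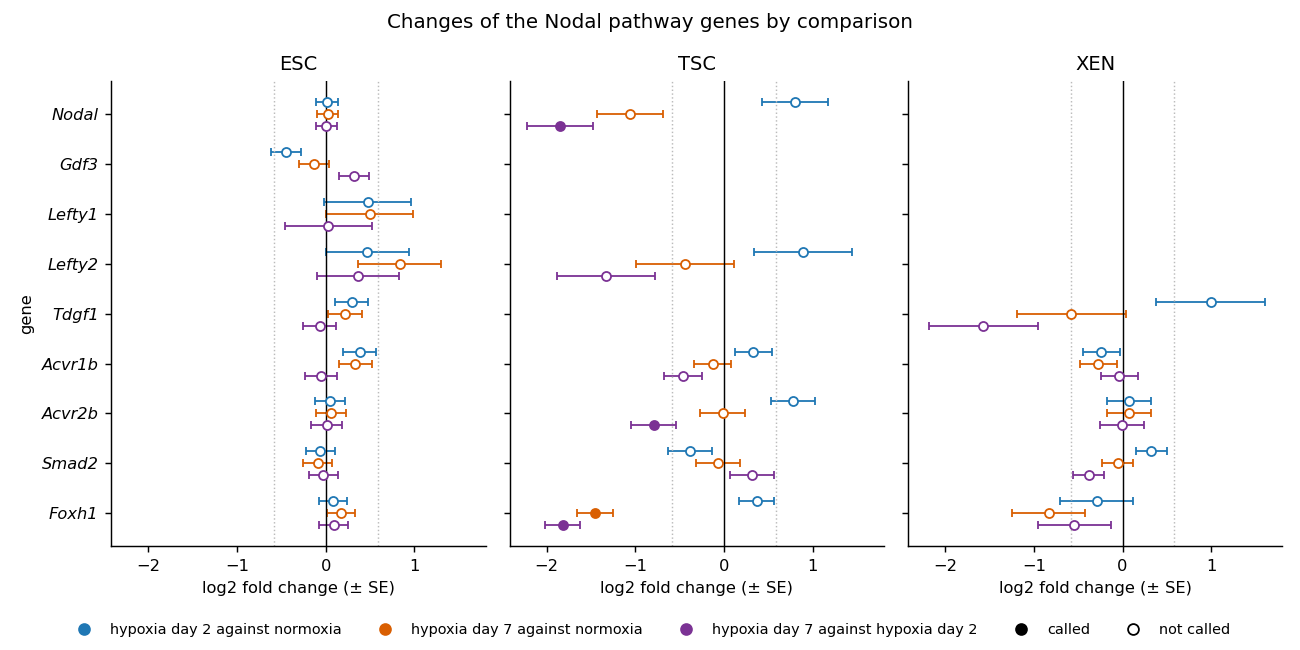
Log2 fold change of each gene with its SE from limma (n = 2 libraries per condition) in ESCs, TSCs and XEN cells for the 3 comparisons. Filled points were called, dotted lines mark 1.5-fold, and all 4 called values are in TSCs on day 7.

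Nodal, the ligand, was the steadiest of the 9 in ESCs. Its TPM was 151 and 134 in normoxia, 142 and 145 after 2 days and 147 and 142 after 7 days. The 3 conditions overlapped, and the replicates of a condition differed by at most 1.13-fold. The log2 fold change was 0.01 on day 2 and 0.02 on day 7 against normoxia, and the 95% interval of the latter ran from −0.26 to 0.30. Of all genes tested in ESCs, 90.2% had a larger SD between replicates than Nodal. The other ligand, Gdf3, which can signal through the same receptors, had 324 and 261 TPM in normoxia, 239 and 191 after 2 days and 243 and 291 after 7 days. Its day 2 libraries were both below the normoxic ones (log2 fold change −0.44), which is under 1.5-fold and did not pass the threshold.

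Tdgf1 was the most abundant member, at 975 and 848 TPM in normoxia, 961 and 1287 after 2 days and 1209 and 928 after 7 days. Foxh1, the forkhead partner that directs SMAD complexes to Nodal targets, was at 501 and 387 TPM in normoxia, 483 and 450 after 2 days and 454 and 541 after 7 days. For both genes the conditions overlapped. The type I receptor Acvr1b had 8.65 and 7.60 TPM in normoxia, 9.84 and 11.7 after 2 days and 11.5 and 9.31 after 7 days. All 4 hypoxic libraries were above the normoxic ones for Acvr1b, by 0.38 on day 2 and 0.33 on day 7 on the log2 scale, and neither value passed the threshold. Acvr2b ranged from 13.2 to 16.4 TPM and Smad2 from 9.72 to 11.5 TPM over the 6 ESC libraries, with overlap between hypoxia and normoxia. The libraries did not overlap for 2 of 9 members on day 2 against normoxia and for 1 of 9 on day 7, beside 30.8% and 40.5% of all genes tested. The median log2 fold change of the 9 was 0.08 on day 2 and 0.17 on day 7, and that of all genes was 0.01 and 0.02.

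Lefty1 and Lefty2 varied more between the replicates of a condition than between conditions. Lefty1 was at 74.4 and 165 TPM in normoxia, 111 and 213 after 2 days and 247 and 99.4 after 7 days. Lefty2 was at 57.6 and 123 TPM in normoxia, 81.5 and 167 after 2 days and 220 and 102 after 7 days. Replicate 2 was thus the higher in normoxia and on day 2 and replicate 1 on day 7, for both genes. Between replicates, Lefty1 differed by 1.91-fold to 2.49-fold and Lefty2 by 2.05-fold to 2.15-fold, although each value rested on 793 to 6281 reads. Only 0.318% of the genes tested had a larger SD between replicates than Lefty1, and 0.432% than Lefty2. The single change past 1.5-fold was that of Lefty2 on day 7 against normoxia, with a log2 fold change of 0.83 (SE 0.46, limma adjusted p = 0.756). The libraries overlapped and the change was not distinguishable from the spread between replicates.

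The 2 antagonists moved together from library to library. Pearson's r between them was 0.96 over the 6 ESC libraries, which come from 3 conditions and 1 line and hold 37760283 to 61958573 reads each, and is given as a description. The ratio of Lefty1 to Lefty2, as TPM with exon length, was between 1.07 and 1.14 in the 4 libraries of normoxia and day 2 and was 0.940 and 0.812 on day 7. Nodal did not follow them, with r of −0.21 against Lefty1 and −0.17 against Lefty2. Outside the 9 genes, the 3 most like Lefty1 of 12262 compared were Wnt8a, a WNT ligand (r = 0.98, 3.08 to 6.46 TPM), Spata24 (0.98, 3.92 to 6.34 TPM) and Arf5 (0.97, 164 to 212 TPM). Those most like Lefty2 were C1s1 (0.99, 1.71 to 2.73 TPM), Fam131b (0.98, 1.56 to 4.39 TPM) and the iron exporter Slc40a1 (0.97, 3.64 to 8.77 TPM). Those most like Nodal were Nup50, a nuclear pore protein (0.99, 145 to 167 TPM), Luzp1 (0.98, 19.6 to 24.9 TPM) and BC004004 (0.98, 5.28 to 7.22 TPM), over a range of Nodal itself of only 134 to 151 TPM. An r over 0.9 was found for 61 genes with Lefty1, 75 with Lefty2 and 120 with Nodal, so such values are frequent over 6 libraries.

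Some other targets of Nodal showed the order of replicates seen for the Lefty genes. Of 11 embryonic targets tested in ESCs, 6 (Mixl1, Otx2, Fgf8, Fgf5, Skil and Smad7) were higher in replicate 2 in normoxia and on day 2 and higher in replicate 1 on day 7, as were 11.5% of the 12271 genes tested. Skil, a co-repressor that limits SMAD activity, was at 71.4 and 97.8 TPM in normoxia, 98.9 and 153 after 2 days and 130 and 75.8 after 7 days. Fgf5, a marker of the primed epiblast, was at 0.610 and 0.982 TPM in normoxia, 0.804 and 2.01 after 2 days and 2.36 and 1.17 after 7 days. Among the 8 genes of the hypoxia response, 5 had the same order, and their summed TPM was 1381 and 1474 in normoxia, 2576 and 3316 after 2 days and 3414 and 2382 after 7 days. None of the 8 ESC markers had it. This order was noticed after the values were seen, and no test was made of it. The parts of depth and of the hypoxia response in it were not tested.

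**Figure D3:**
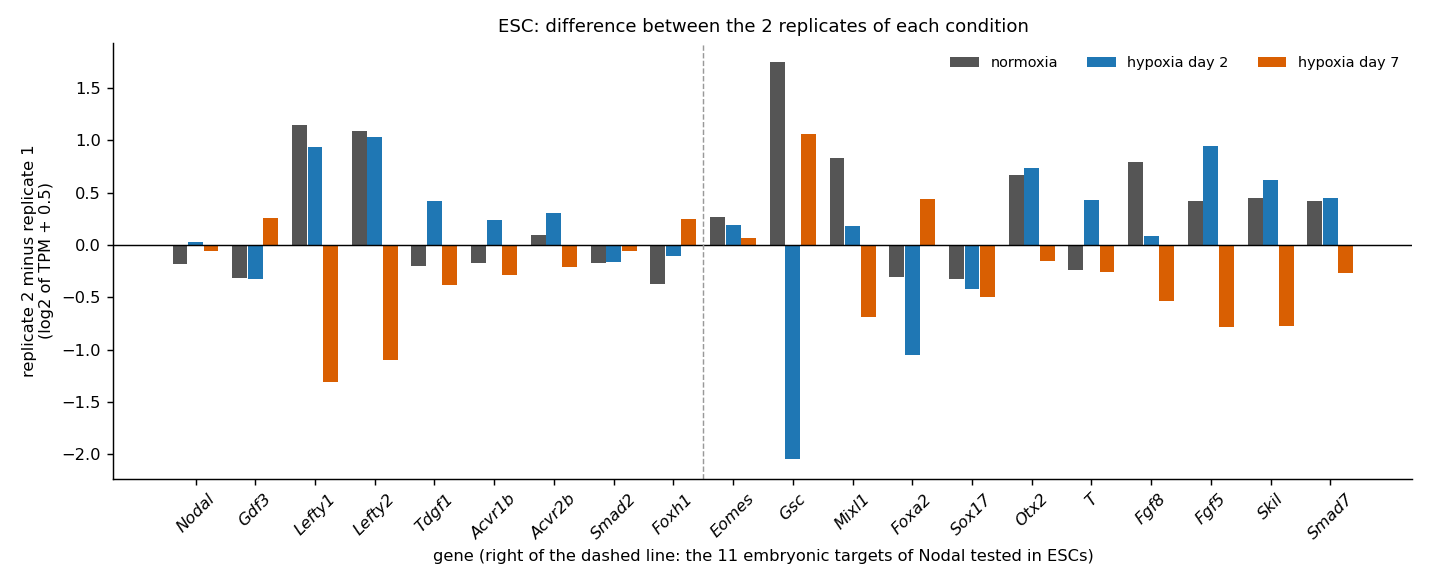
Difference between replicate 2 and replicate 1 of each ESC condition, in log2(TPM + 0.5), for the 9 genes and, right of the dashed line, the 11 embryonic targets of Nodal tested in ESCs. Lefty1 and Lefty2 have bars near or beyond 1 in all 3 conditions with the sign turned on day 7, and 6 of the 11 targets share these signs.

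In TSCs, Foxh1 and Nodal were lowest after prolonged hypoxia. Foxh1 was at 200 and 252 TPM in normoxia, 314 and 267 after 2 days and 76.1 and 87.4 after 7 days, from 510 to 2157 reads. Both day 7 libraries lay far below the other 4. Foxh1 fell by 1.46 on the log2 scale on day 7 against normoxia (SE 0.20, limma adjusted p = 0.0801) and by 1.82 against day 2 (SE 0.20, adjusted p = 0.0135), and its mean TPM on day 7 was 81.8 ± 7.98 (SD, n = 2). The call against normoxia was lost in 10 of 17 alternatives, with adjusted p between 9.80e-05 and 0.630, and its direction held in all 17. Against day 2 it was lost only without day 2 replicate 1 or day 7 replicate 2. Leaving out any 1 day 2 or day 7 library ended the call against normoxia.

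Nodal in TSCs was at a level far below that in ESCs, at 9.26 and 5.25 TPM in normoxia, 14.4 and 10.9 after 2 days and 4.12 and 2.30 after 7 days, from 70 to 422 reads. The 3 conditions did not overlap, with day 2 highest and day 7 lowest. Nodal fell by 1.86 on the log2 scale from day 2 to day 7 (SE 0.37, limma adjusted p = 0.0351), a call lost in 3 of 17 alternatives, with adjusted p of 0.218 without day 2 replicate 1, 0.104 without day 7 replicate 1 and 0.213 without day 7 replicate 2. Its rise of 0.80 on day 2 (SE 0.37, adjusted p = 0.417) and its difference of −1.06 on day 7 against normoxia (SE 0.37, adjusted p = 0.388) did not pass the threshold. The type II receptor Acvr2b was at 7.68 and 10.8 TPM in normoxia, 16.4 and 15.6 after 2 days and 9.87 and 8.17 after 7 days. The day 2 libraries were above all others, and day 7 overlapped normoxia. Acvr2b fell by 0.80 from day 2 to day 7 (SE 0.25, adjusted p = 0.0978), a call lost in 9 of 17 alternatives, and its difference of 0.78 on day 2 against normoxia (SE 0.25, adjusted p = 0.294) was not called.

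The other TSC members were not called. Acvr1b was at 15.8 and 14.7 TPM in normoxia, 19.4 and 19.2 after 2 days and 15.3 and 12.6 after 7 days. Smad2 was at 13.2 and 14.3 TPM in normoxia, 9.90 and 10.9 after 2 days and 15.6 and 10.9 after 7 days. Lefty2 was barely expressed, with 22 and 2 reads in normoxia, 22 and 42 after 2 days and 12 and 0 after 7 days. This is 1.08 and 0.0908 TPM, 0.921 and 1.76 TPM, and 0.515 and 0 TPM, where the count of 0 allows up to 0.121 TPM (3 reads, counting error only, each read taken as independent). The limit is higher if mates were counted singly. The log2 fold change of Lefty2 was 0.89 on day 2 against normoxia (SE 0.55, limma adjusted p = 0.528) and −1.33 on day 7 against day 2 (SE 0.55, adjusted p = 0.172), with the replicates of normoxia 11.9-fold apart.

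Read against the background, the fall from day 2 to day 7 was shared with many genes. The libraries of 4 of 6 members were all higher on day 2 than in normoxia (30.6% of all genes tested), and those of 5 of 6 were all lower on day 7 than on day 2 (44.9%). For 3 of 6 the fall was called, beside 13.8% of all genes tested. The median log2 fold change of the 6 was 0.57 on day 2 against normoxia and −1.06 on day 7 against day 2, and that of all genes was 0.07 and −0.24. Of all genes, 296 were called higher and 1723 lower on day 7 than on day 2. With median-ratio scaling, 738 were called higher and 968 lower, the median of all genes was 0.02, and Foxh1 and Nodal were called lower by 1.54 and 1.60 while Acvr2b (−0.52) was not called. Over the 6 TSC libraries Nodal had r of 0.93 with Acvr1b, 0.84 with Foxh1 and 0.84 with Lefty2, and −0.39 with Smad2, which is a description of libraries that share the day 7 fall.

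The TSC markers changed unevenly from day 2 to day 7. Their summed level, in deposited TPM, was 13299.5 and 22432 TPM in normoxia, 12416 and 12040 after 2 days and 22913 and 21236 after 7 days, thus higher on day 7 than on day 2. Hand1 (below) was the largest part of this sum on both days. Elf5, a transcription factor of the trophoblast stem cell, was at 60.4 and 56.6 TPM in normoxia, 82.5 and 85.1 after 2 days and 18.8 and 14.7 after 7 days. Sox2, which is used by both ESCs and TSCs, was at 660 and 714 TPM in normoxia, 1045 and 1104 after 2 days and 172 and 129 after 7 days. Of 8 TSC markers, 5 (Cdx2, Elf5, Eomes, Gata3 and Tead4) were called lower on day 7 than on day 2 and 1, the keratin Krt8, was called higher. The abundant Hand1, a factor of trophoblast giant cells, was at 8568 and 7234 TPM on day 2 and 14763 and 12872 on day 7 and was not called (limma adjusted p = 0.137), and Tfap2c also had both day 7 libraries above both of day 2. Of the 8 hypoxia response genes, 6 were called lower on day 7 than on day 2, and 8 of 8 had both day 7 libraries below both of day 2 (median log2 fold change −0.97). The part of the TSC markers and of the hypoxia response in the fall of Foxh1, Nodal and Acvr2b was not tested. The fibroblast markers were highest in normoxic replicate 1 and day 2 replicate 2. Without these 2 libraries, an alternative added after seeing the data in which each lone library is assumed to vary like the others, the log2 fold changes from day 2 to day 7 were −1.94 for Foxh1, −2.05 for Nodal and −0.83 for Acvr2b. The adjusted p of Acvr2b was then 0.168 and its call was lost. In this fit Lefty2 was called on day 2 against normoxia (log2 fold change 1.27) and on day 7 against day 2 (−0.996), where normoxia was represented by the library with 2 reads.

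**Figure D4:**
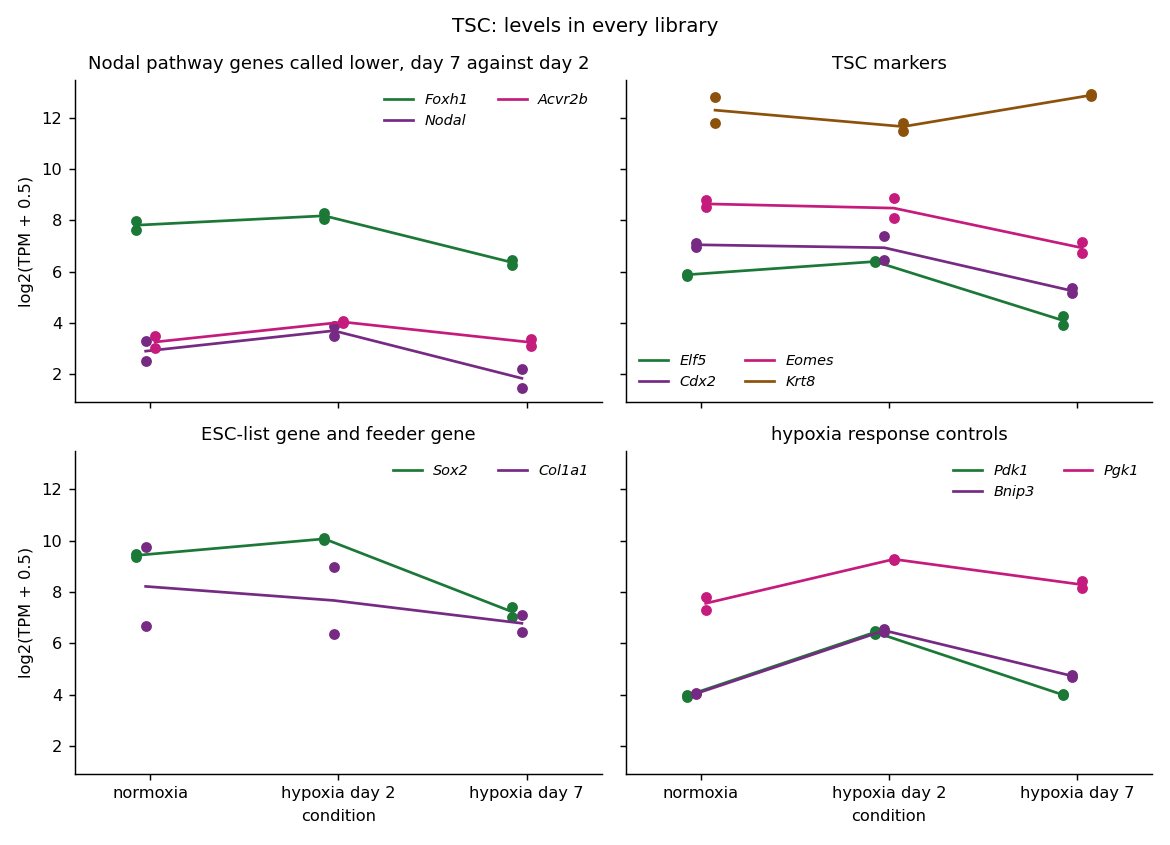
Levels as log2(TPM + 0.5) in the 6 TSC libraries for the 3 pathway genes called lower on day 7 than on day 2, TSC markers, Sox2 with the fibroblast gene Col1a1, and 3 genes of the hypoxia response. Points are libraries and lines join the means of 2 replicates. Foxh1, Nodal, Elf5, Cdx2, Eomes and Sox2 are lowest on day 7, Krt8 is highest there, and Col1a1 splits the replicates of normoxia and of day 2.

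In XEN cells the receptors and Smad2 were present, and Foxh1 and Tdgf1 were near the limit of detection. Nodal, Lefty1, Lefty2 and Gdf3 were not listed. Smad2 was at 31.3 and 26.5 TPM in normoxia, 39.8 and 33.1 after 2 days and 26.8 and 28.7 after 7 days. Acvr1b ranged from 6.89 to 10.6 TPM and Acvr2b from 5.49 to 7.97 TPM. Only Smad2 (higher) and Acvr1b (lower) had libraries apart on day 2 against normoxia, which is 2 of 5 members beside 41% of all genes, and 0 of 5 were apart on day 7 against normoxia beside 41.3%.

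Foxh1 in XEN cells was at 5.54 and 2.95 TPM in normoxia, 3.99 and 2.60 after 2 days and 3.08 and 1.34 after 7 days, from only 6 to 36 reads. The conditions overlapped, and the difference on day 7 against normoxia was −0.83 on the log2 scale (SE 0.41, limma adjusted p = 0.617). Tdgf1 gave 24 and 6 reads in normoxia, 100 and 26 after 2 days and 12 and 0 after 7 days, or 1.13 and 0.172 TPM, 2.91 and 0.773 TPM, and 0.485 and 0 TPM, where 0 reads allow up to 0.176 TPM if each read is independent. Replicates differed by 3.77-fold to 6.54-fold where both had reads. The log2 fold change of Tdgf1 was 0.99 on day 2 against normoxia (SE 0.62, adjusted p = 0.740) and −1.57 on day 7 against day 2 (SE 0.62, adjusted p = 0.410), and neither was called.

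The wider pathway was read from 5 lists that hold 54 other genes. Of these, ESCs had 40, TSCs 43 and XEN cells 37 that passed the filter and were tested. In ESCs, 0 were called on day 2 (3 at an unadjusted p under 0.05 with limma, or 7.5% of 40 beside 5.05% of all genes, and 0 by voom), 2 rose on day 7 against normoxia and 1 rose on day 7 against day 2. In TSCs, 0 were called on day 2 (6 at an unadjusted p under 0.05, or 14% of 43 beside 13.1% of all genes, and 0 by voom) and 0 on day 7 against normoxia (9 at an unadjusted p under 0.05, or 20.9% beside 10.4%, and 1 by voom, T, which was lower). From day 2 to day 7, 10 fell in TSCs (23.3% of the 43, beside 13.8% of all genes called lower and 16.2% called either way). In XEN cells 0 of 37 were called in the 3 comparisons, where 6, 3 and 8 had an unadjusted p under 0.05 with limma on day 2 against normoxia, on day 7 against normoxia and on day 7 against day 2, and voom called 0. These are 16.2%, 8.11% and 21.6% of the 37, beside 7.77%, 9.01% and 11.9% of all genes.

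Among the embryonic targets of Nodal in ESCs, T (brachyury, the regulator of the primitive streak and mesoderm) was at 4.16 and 3.45 TPM in normoxia, 4.17 and 5.80 after 2 days and 19.0 and 15.8 after 7 days. T rose by 2.05 on the log2 scale on day 7 against normoxia (SE 0.21, limma adjusted p = 0.00739) and by 1.72 against day 2 (SE 0.21, adjusted p = 0.0332). The first call was lost in 3 of 16 alternatives, without either normoxic library or day 7 replicate 1. The second was lost in 7 of 16, among them the fit without a filter (adjusted p = 0.105), the fit to the 4 libraries compared (0.141), the replicate block (0.180) and those without any 1 normoxic or day 7 library (up to 0.370). Fgf8, a growth factor of the streak, had 0.829 and 1.80 TPM in normoxia, 1.64 and 1.77 after 2 days and 5.84 and 3.89 after 7 days, and rose by 1.59 on day 7 against normoxia (SE 0.29, limma adjusted p = 0.0803). This call was lost in 8 of 16 alternatives, which were median-ratio scaling (adjusted p = 0.144), voom (0.160), no filter (0.164), the replicate block (0.228) and leaving out any 1 normoxic or day 7 library (up to 0.555). The remaining 9 targets tested were not called. The largest fall was that of Sox17, an endoderm factor, from 1.09 and 0.768 TPM in normoxia to 0.589 and 0.271 TPM on day 7.

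In the other 4 lists 0 genes were called in ESCs. The largest rises on day 7 were those of the proprotein convertase Furin, which cleaves the Nodal precursor, from 8.89 and 8.51 TPM to 20.9 and 14.5 TPM (adjusted p = 0.145 with limma), and of the inhibitor Fstl3, the receptor Eng and the transducer Smad3, with log2 fold changes of 0.89, 0.09 and 0.46. The largest falls were those of Inhbb, an activin subunit (−0.47), the receptor Acvr2a (−0.18), the membrane protein Tmeff1 (−0.37) and the co-activator Ep300 (−0.23). None of these values passed the threshold.

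The 10 genes called in TSCs from day 2 to day 7 came from all 5 lists and all fell. Of the ligands and convertases, Pcsk6, a convertase of Nodal, had 6.77 and 5.49 TPM on day 2 and 0.913 and 1.18 TPM on day 7, a log2 fold change of −2.10. Inha, the inhibin alpha subunit, fell by 1.32. Of the receptors, Eng (endoglin) fell by 1.42. Of the inhibitors, the pseudoreceptor Bambi fell by 1.27 and Nomo1 by 0.66. Of the SMADs and nuclear partners, the co-repressor Tgif2 fell by 1.09, Smad3 by 1.04 and the common partner Smad4 by 0.73. Of the embryonic targets, Eomes, which TSCs also need as a stem cell factor and which is one of the TSC markers above, fell by 1.55. T had 1.80 and 1.65 TPM on day 2 and 0 reads in both day 7 libraries. By the floor of 3 reads per library T was at least 18.6-fold lower if each read is independent, and this bound is smaller if mates were counted singly. All 10 calls were lost without day 2 replicate 1 and without day 7 replicate 2. Those of Smad4 (11 of 17 alternatives), Nomo1 (8 of 17) and Tgif2 (5 of 17) were lost most often, and with median-ratio scaling Smad4 and Nomo1 fell by 0.45 and 0.38, under 1.5-fold, and Tgif2 by 0.82 (adjusted p = 0.121). The median log2 fold change of the lists was between −0.68 and −0.13, and that of all genes −0.24.

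**Figure D5:**
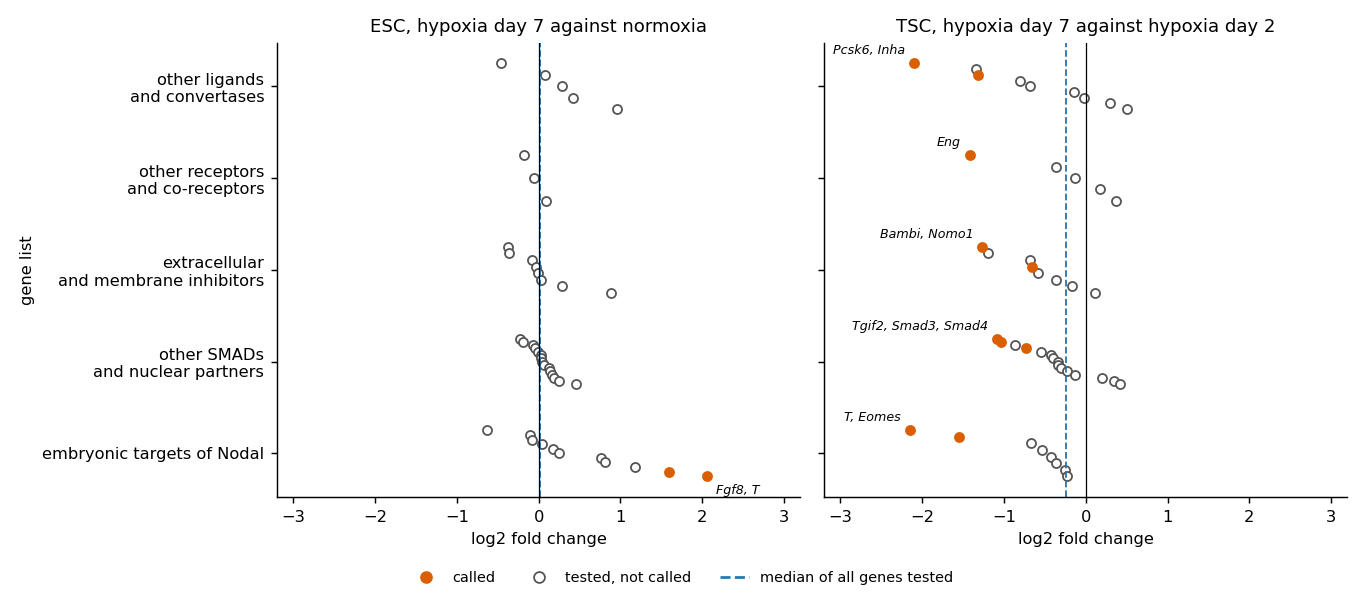
Log2 fold change of the genes of the 5 pathway lists in ESCs on day 7 against normoxia and in TSCs on day 7 against day 2. Each point is a gene, filled and named where called, and the dashed line is the median of all genes tested. T and Fgf8 stand to the right in ESCs, and the 10 called genes of TSCs all lie to the left.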

How the data were processed

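Per the labels, RNA-seq libraries (18) were made from ESCs, TSCs and XEN cells in normoxia or on day 2 or day 7 of hypoxia. The authors trimmed reads with cutadapt 2.4, aligned them to mm10 with STAR 2.7.5a, ran StringTie 2.0.6, counted genes with featureCounts, filtered at 0.4 CPM with edgeR 3.26.8 and deposited TPM. Each table was normalized on its own, so cell types were not tested against each other. No count column was used. TPM plus 0.5 were fitted on the log2 scale with limma 3.58.1 in R 4.3.3, with a mean-variance trend, to the 6 libraries of a cell type. The authors' edgeR test was not run, since the files hold no counts. Reads were recovered from TPM and gene span with Python 3.11.15 (tolerance 0.05 of a read) and used for depth, exon-length TPM and a voom alternative. The annotation was GENCODE on GRCm38, of another release than the authors'. The fit was also run on simulated reads with large set changes and the same spread for every gene, which does not show its power for the changes described here. The members and gene lists were chosen with earlier results of these data known. One gene of these lists and 1 pair of sequences are not reported here. Named genes are the 9 members, called list genes (at most 3 per direction), the largest ESC changes of lists without a call and the 3 genes most like Nodal, Lefty1 and Lefty2. Alternatives were other pseudocounts, filters and scalings, no trend, 4-library fits, the replicate block, voom and each library left out. Figures were drawn with matplotlib 3.10.9.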

Additional observations from a re-analysis of the deposited data

Results flagged for a closer look

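Acvr1b moved in opposite directions in different cell types on day 2 against normoxia. Both hypoxic libraries were above both normoxic libraries in ESCs (log2 fold change 0.38) and in TSCs (0.33), and both were below in XEN cells (−0.24). Smad2 on day 2 against normoxia was lower in both TSC libraries (−0.38) and higher in both XEN libraries (0.33). On day 7 against day 2, Smad2 was higher in TSCs (0.32) and lower in XEN cells (−0.38). The TSC values nearly touched, at 15.6 and 10.93 TPM on day 7 and 9.90 and 10.91 TPM on day 2. Libraries apart are frequent. On day 2 against normoxia they were found for 30.8% of all genes in ESCs and 41% in XEN cells (either way), and for 30.6% in TSCs (higher only). These differences between cell types were not tested, since the tables were normalized separately, and none of the single values was called by limma.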

How the results depend on the processing

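In ESCs and XEN cells 0 members were called in all 6 comparisons and under every alternative run. On day 2 in these cells the main fit also called 0 of the hypoxia response genes. On day 7 against normoxia it called 1 of 8 in ESCs, where 6 were past 1.5-fold, and 1 of 7 in XEN cells, where 5 were. The counts of 0 members therefore do not show that the members were unchanged. In TSCs, the 1 call on day 7 against normoxia (Foxh1) became 0 calls without a filter on low values, with median-ratio scaling, without the mean-variance trend, with voom and in the fit to the 4 libraries compared, and leaving out 1 library gave 0 to 1 calls. The 3 calls on day 7 against day 2 (Foxh1, Nodal and Acvr2b) became 0 to 4 when 1 library was left out, with 0 without day 2 replicate 1 or day 7 replicate 2 and 1 without day 7 replicate 1, where each lone library is assumed to vary like the others. Day 2 against normoxia gave 1 call in place of 0 without the 2 libraries richest in collagen, chosen after seeing the data. None of the 26 fold changes followed under alternatives (those of members past 1.5-fold and of called list genes) reversed: of 435 values, 344 kept direction and call, 86 lost the call and 5 gained it. The number of the replicate was not used as a pair in the main fit, since the labels state no pairing. The deviations of same-numbered libraries correlated at −0.46 to 0.27 in TSCs, −0.22 to 0.01 in ESCs and −0.11 to 0.24 in XEN cells, which does not exclude a pairing. With the replicate block, 0 members in TSCs were called on day 7 against normoxia (Foxh1, adjusted p = 0.147) and 2 on day 7 against day 2, without Acvr2b (adjusted p = 0.124), and the calls over all genes in TSCs were 3, 13 and 1975 in place of 25, 48 and 2019. Where a call was lost, the cause was not tested. Depth limits Lefty2 in TSCs and Tdgf1 and Foxh1 in XEN cells, with 0 to 100 reads per library.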
